A study of Mus musculus with 59 samples.

Results

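Glia of mouse sandwich co-cultures were compared between day 14 and day 7. The comparison took all libraries labelled as glia at those days, 16 of the 59 libraries of the series, with 8 at day 14 and 8 at day 7. A sandwich joins glia and neurons in 1 culture, from which either the glial or the neuronal RNA was sequenced. Each partner was either SOD1_G93A mutant, which carries a mutant human SOD1 transgene used to model amyotrophic lateral sclerosis, or wild type. At each day there were therefore mutant glia with mutant neurons, mutant glia with wild-type neurons, wild-type glia with mutant neurons and wild-type glia with wild-type neurons, each with libraries numbered 1 and 2. The labels give no growth medium, source or age of the cells, and do not say whether the numbered libraries came from separate cultures, so the spread behind each p-value is that between libraries and may be technical.

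Glial cultures hold mostly astrocytes, which clear glutamate and buffer potassium around neurons, with some microglia (the resident immune cells), ependymal cells bearing motile cilia, oligodendrocyte lineage cells and fibroblasts of the meninges. Immediate early genes such as Fos, Egr1 and Nr4a1 encode transcription factors whose mRNA appears within minutes of a stimulus, without new protein synthesis, and disappears soon after. They are read out in both neurons and glia after growth factors, calcium entry, cyclic AMP or handling.

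All 13 listed members of this family had a log2 difference above 0 at day 14 over day 7, and 3 of their promoters are shown because these 3 genes had the largest differences among those with a RefSeq window (Egr1 had none). Each run is 250 bases ending at the base before the transcription start, read 5′ to 3′ on the gene's strand, from RefSeq on GRCm38.p6. Capitals mark TGACG, the core of the cyclic AMP response element (CRE), on either strand, so that CGTCA is its reverse.
Fos, chr12:85473640-85473889, plus strand: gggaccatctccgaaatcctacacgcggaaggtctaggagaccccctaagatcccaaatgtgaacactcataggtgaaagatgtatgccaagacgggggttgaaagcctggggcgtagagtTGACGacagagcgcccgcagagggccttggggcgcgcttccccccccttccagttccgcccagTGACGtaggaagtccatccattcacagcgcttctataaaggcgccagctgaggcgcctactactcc
Fosb, chr7:19310046-19310295, minus strand: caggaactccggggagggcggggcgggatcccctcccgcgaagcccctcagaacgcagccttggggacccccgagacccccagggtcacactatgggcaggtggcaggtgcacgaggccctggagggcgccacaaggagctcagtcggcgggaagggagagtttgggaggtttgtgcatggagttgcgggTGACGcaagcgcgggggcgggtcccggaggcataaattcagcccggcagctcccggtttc
Nr4a1, chr15:101266596-101266845, plus strand: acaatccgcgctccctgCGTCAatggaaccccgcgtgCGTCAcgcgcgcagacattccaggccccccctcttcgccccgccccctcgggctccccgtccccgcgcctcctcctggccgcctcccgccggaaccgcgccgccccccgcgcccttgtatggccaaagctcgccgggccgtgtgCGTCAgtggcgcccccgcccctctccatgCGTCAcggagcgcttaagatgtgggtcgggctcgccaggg
Fos held 2 such stretches, Fosb 1 and Nr4a1 4. Of the 13 listed immediate early genes 9 had a window, and 8 of the 9 genes held TGACG, as did 17.8% of 32851 windows of this length. The full element TGACGTCA, which contains the core on both strands, stood in windows of 2 of the 9 genes (Btg2 and Dusp1) and in 1.55% of all windows. The serum response element core known as the CArG box stood in 1 of the 9 (Egr2) and in 1.47% of all windows. Only exact matches were counted, and sites farther upstream than 250 bases were not searched for any gene. Some genes, such as Egr2, had more than 1 window, and a gene was counted when any of its windows held the letters, which are a description and not evidence of binding.

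The deposited values are RPKM (read numbers divided by the length of the gene and the size of the library), rescaled here so that the typical gene had equal levels in all 16 libraries, with factors of 0.946 to 1.04. Reads on genes came to 3.13 to 8.82 M in the day 14 libraries numbered 1, 20.6 to 22.0 M in those numbered 2, and 11.5 to 19.2 M at day 7. Libraries did not stand alone. Those that shared day, number and glial genotype and differed in the neuron partner differed by only 1.63 to 6.18 times counting noise, against 8.98 to 21.0 times between the numbered libraries of a pairing. The 2 libraries that shared these labels are called a culture below, so that there were 8 cultures, and both cultures of a day and number a set, although the labels do not say that such libraries shared a dish. The mutant glia of day 14 numbered 2 stood farthest out, at 46.8 and 51.7 on the first principal component (35.0% of variance), against -27.5 to 25.4 for the other 14 libraries. All 12 astrocyte markers and all 12 microglial markers were measured, and of 13 neuronal markers Rbfox3, Syt1, Elavl4 and Slc17a6 stayed under the minimum of 1 RPKM in 2 libraries. The mouse Sod1 gene, which is not the human transgene and so does not check the genotype labels, had 160 to 299 RPKM at day 14 and 157 to 498 RPKM at day 7 (medians 215 and 252, log2 difference -0.28, adjusted p = 0.805).

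No gene passed the test between days when the sets were treated as the units that vary (limma, Benjamini-Hochberg adjusted p under 0.05, 0 of 13833 genes, 0%). An unadjusted p under 0.05 was reached by 1117 genes, or 8.07%, with 360 higher and 757 lower at day 14, and the smallest adjusted p was 0.0994, for Egr1. With cultures as the units 33 genes passed (13 higher, 20 lower), with libraries taken as independent 1561, and without the 2 mutant libraries of day 14 numbered 2 it was 3. Both cultures of a set also deviated together from the means of their pairing and day. Between glia genotypes these deviations correlated at 0.71 to 0.84 at day 7 and 0.23 to 0.34 at day 14. Fits by cultures treat such cultures as independent, so their p-values for the day can be too small. Levels of the 8 day 14 libraries all lay above those of the 8 day 7 libraries in 136 genes (0.983%) and all below in 165 (1.19%). The median gene differed by 0.25 on the log2 scale between the 2 day 14 sets and by 0.21 between the 2 day 7 sets, against 0.17 between the days. The day value compares means over 2 sets each and so averages out more than a difference of single sets. Log2 differences are day 14 minus day 7 of log2(RPKM + 1), which understates low genes. The genes named first are the 12 largest in each direction among those with a current symbol, a mean of at least 5 RPKM on the higher day and no overlap of the 8 and 8 libraries, a choice made once it was known that none passed. Separation by day was thus a condition for naming these genes and not a finding about them.

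Immediate early genes had the largest list median at day 14 over day 7 of the lists examined. All 13 listed genes had a log2 difference above 0, with a median of 0.78 against 0.01 over all genes tested. Of the 13 genes 8 had no overlap between days, against 0.983% of all genes in that direction. An unadjusted p under 0.05 was reached by 10 of them, all higher, and by 2.60% of all genes in that direction. Of the members 5 (Egr1, Fos, Ier2, Egr2 and Nr4a1) passed with cultures as the units, a fit that ignores the likeness of cultures within a set.

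Egr1, a zinc finger transcription factor, had 58.6 to 118 RPKM at day 14 (median 85.4), against 11.4 to 24.3 RPKM at day 7 (median 17.6). Egr1 was among the genes chosen for no overlap, and the gap between the days was larger than the whole day 7 range. The log2 difference was 2.18 (SE 0.32), with an adjusted p of 0.0994 by sets and 0.00154 by cultures. Without the mutant culture of day 14 numbered 2 it was 2.01 and passed by sets (adjusted p = 0.0294). It was 2.21 in mutant and 2.16 in wild-type glia, and the difference between genotypes, 0.05 (SE 0.27), was within its error.

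Fos, a subunit of the AP-1 transcription factor, had 34.2 to 85.7 RPKM at day 14 (median 49.8), against 11.4 to 17.1 RPKM at day 7 (median 14.2). The 4 mutant libraries had 47.3, 34.2, 40.4 and 45.0 RPKM at day 14 and 17.1, 15.7, 13.9 and 11.7 RPKM at day 7. The 4 wild-type libraries had 53.7, 52.4, 70.7 and 85.7 RPKM at day 14 and 15.6, 14.5, 11.4 and 13.0 RPKM at day 7. At day 14 each wild-type library was above each mutant one, while at day 7 the genotypes overlapped. Fos rose in wild-type glia (log2 2.17, adjusted p = 0.00186 by sets and 0.00457 by cultures), and in mutant glia the difference was 1.46 (adjusted p = 0.0692). Without the mutant culture of day 14 numbered 2 the difference over both genotypes was 1.98 (adjusted p = 0.0294 by sets), against 1.81 with it (adjusted p = 0.131). The difference between genotypes, -0.71 (SE 0.17), passed by sets (adjusted p = 0.0347) and not by cultures (adjusted p = 1.00).

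Fosb, a relative of Fos, had 7.51 to 23.6 RPKM at day 14 (median 14.9), against 1.30 to 7.39 RPKM at day 7 (median 2.90; log2 1.88, adjusted p = 0.314). Nr4a1, an orphan nuclear receptor, had 11.1 to 26.5 RPKM at day 14 (median 19.3), against 2.20 to 7.71 RPKM at day 7 (median 3.96; log2 1.85, adjusted p = 0.225 by sets and 0.0422 by cultures). Both genes were chosen for no overlap between days, and the lowest Fosb value of day 14 lay close to the highest of day 7. Ier2, a small nuclear protein, had 7.37 to 12.9 RPKM at day 14 and 2.59 to 4.63 RPKM at day 7, with a log2 difference of 1.20. Egr2, a sister of Egr1, had 3.17 to 6.34 RPKM at day 14 and 0.988 to 1.89 RPKM at day 7, with a log2 difference of 1.22. Neither Ier2 nor Egr2 overlapped between days, which for Ier2 was a condition of its choice. Arc, known from neuronal synapses, was low at both days, with 0.986 to 2.32 RPKM at day 14 and 0.386 to 0.631 RPKM at day 7. Myc had the smallest difference among the 8 without overlap, with 11.6 to 16.3 RPKM at day 14 and 6.30 to 11.2 RPKM at day 7 (log2 0.61).

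The other 5 members overlapped between days. Junb, a partner of Fos in AP-1, had 45.9 to 70.5 RPKM at day 14 and 21.7 to 55.5 RPKM at day 7 (log2 0.78, adjusted p = 0.550). Jun had 55.7 to 92.3 RPKM at day 14 and 41.5 to 66.6 RPKM at day 7, Btg2 27.3 to 67.0 and 17.9 to 34.9 RPKM, Atf3 14.6 to 19.2 and 8.37 to 21.1 RPKM, and Dusp1, a phosphatase that switches off MAP kinases, 38.9 to 121 and 39.9 to 117 RPKM. These 5 thus had log2 differences of 0.20 (Dusp1) to 0.78 (Junb). Jun also differed by genotype in its change, by -0.56 (adjusted p = 0.0357 by sets), with 0.27 in mutant and 0.83 in wild-type glia.

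**Figure D1:**
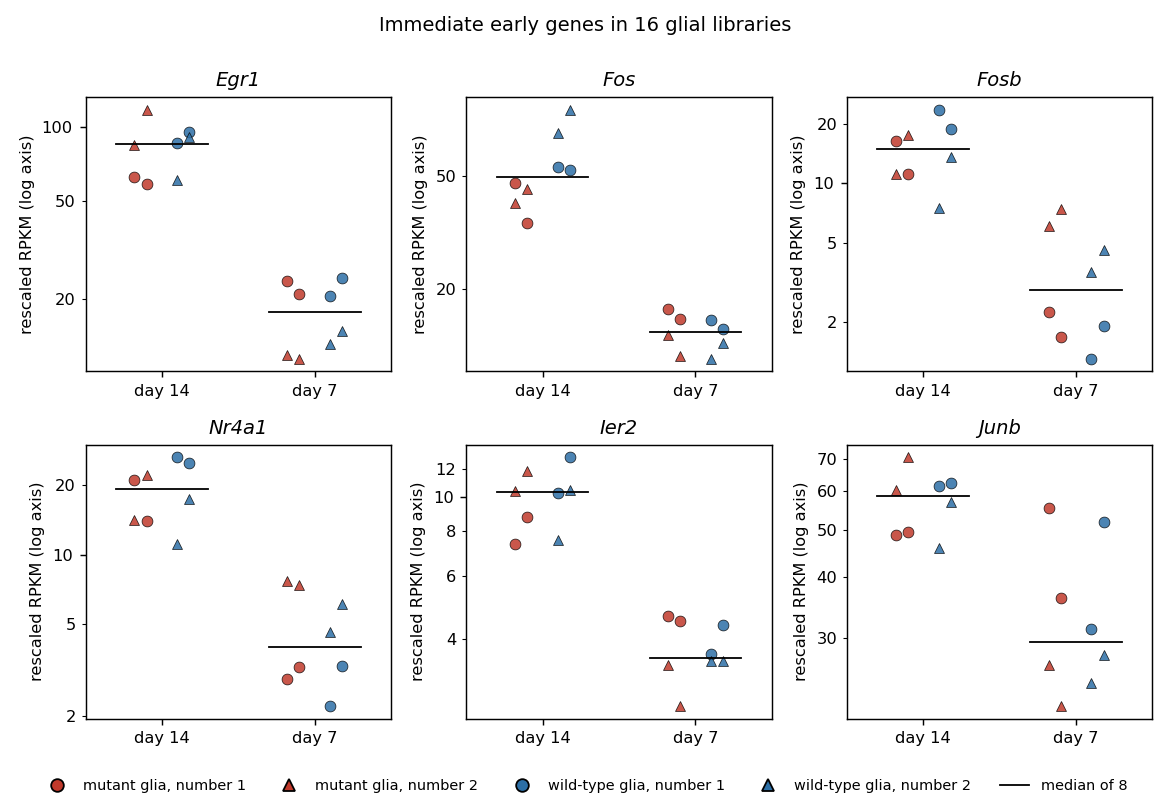
Levels of 6 immediate early genes in 16 glial libraries, in rescaled RPKM on a log axis, with day 14 left of day 7; red marks mutant and blue wild-type glia, circles number 1 and triangles number 2, and the line is the median of 8 libraries. Egr1, Fos, Fosb, Nr4a1 and Ier2, which were chosen for no overlap between days, do not overlap, and Junb does.

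The list median by culture was above the mean of all 8 cultures in each day 14 culture, by 0.36 to 0.71 on the log2 scale, and below it in each day 7 culture, by 0.36 to 0.66. The medians of the mutant and wild-type differences were 0.77 and 0.83. The summed level of the 13 genes was 364 to 575 RPKM at day 14 and 194 to 334 RPKM at day 7, without overlap.

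Beyond the list, 6 genes with known proteins were among the 12 largest higher ones chosen for no overlap between days. Csrnp1, a nuclear protein, had 12.3 to 32.9 RPKM at day 14, against 7.04 to 10.4 RPKM at day 7 (log2 1.08). Trib1, a pseudokinase that steers protein degradation, had 9.42 to 16.6 RPKM at day 14, against 5.80 to 7.93 RPKM at day 7 (log2 0.85, adjusted p = 0.0422 by cultures). Its change was 0.54 in mutant and 1.17 in wild-type glia, in which it rose by sets (adjusted p = 0.00411) and did not pass by cultures. Ccn1, a secreted matrix protein, had 304 to 973 RPKM at day 14, against 201 to 287 RPKM at day 7, and was the most abundant of these genes. Plk3, a stress kinase, had 5.83 to 23.9 RPKM at day 14 and 3.65 to 4.85 RPKM at day 7, Klf13, a zinc finger factor, 9.67 to 19.5 and 5.13 to 8.12 RPKM, and Hpse, which cleaves heparan sulphate, 3.75 to 13.1 and 1.94 to 2.91 RPKM. Ccn1, Plk3 and Hpse spread widely at day 14. Without the mutant culture of day 14 numbered 2 the log2 differences of Ccn1, Plk3 and Hpse were 0.68, 0.63 and 0.79, against 0.95, 0.97 and 1.06 with it. The largest difference, 2.57, belonged to Ftl2-ps, a copy of the ferritin light chain gene whose reads cannot be told apart with certainty from those of its parent, with 12.3 to 36.3 RPKM at day 14 and 0.104 to 10.4 RPKM at day 7.

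Single members of other lists also lay apart. Trib3, a pseudokinase of the integrated stress response, had 3.03 to 5.79 RPKM at day 14, against 1.02 to 2.26 RPKM at day 7 (log2 0.89, adjusted p = 0.0422 by cultures). Id1, a target of BMP signalling, had 88.0 to 136 RPKM at day 14, against 66.2 to 83.7 RPKM at day 7 (log2 0.58). Mdm2, the p53 antagonist, had 35.9 to 55.0 RPKM at day 14, against 25.4 to 30.2 RPKM at day 7 (log2 0.57). Their lists as a whole stayed near the median of all genes, at 0.16 for the unfolded protein response (14 genes), 0.15 for TGF-beta and BMP signalling (18 genes) and 0.12 for cell cycle inhibitors and p53 targets (12 genes). The only members of those 3 lists without overlap were these 3, against 0.983% of all genes with day 14 higher.

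Of 12 microglial markers none passed by sets, 10 had a log2 difference below 0 and 8 reached an unadjusted p under 0.05, all lower, against 5.47% of all genes in that direction. The list median was -0.68, and 2 of the 12 did not overlap (Cx3cr1 and P2ry12), against 1.19% of all genes in that direction. The summed level of the 12 markers was 622 to 888 RPKM at day 14 and 822 to 1222 RPKM at day 7. The list's median offset from the mean of all 8 cultures was -0.70 to 0.12 in day 14 cultures and -0.04 to 0.51 in day 7 cultures, so that the wild-type culture of day 14 numbered 1 (0.12) was above the mutant culture of day 7 numbered 2 (-0.04). In such mixed RNA fewer microglia and less RNA per microglial cell cannot be told apart.

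Cx3cr1, the receptor for the neuronal chemokine fractalkine, had 3.62 to 49.1 RPKM at day 14 (median 34.5), against 57.4 to 90.8 RPKM at day 7 (median 72.1). Its lowest values, averaging 4.93 RPKM, were those of the mutant culture of day 14 numbered 2, against 24.8 to 47.8 RPKM in the other 3 day 14 cultures. The log2 difference of -1.60 had an adjusted p of 0.570, and was -1.11 without that culture (adjusted p = 0.316). Aif1, a calcium-binding protein used to stain microglia as Iba1, had 5.31 to 21.8 RPKM at day 14 and 19.8 to 111 RPKM at day 7, with the largest difference of the list (log2 -1.94). P2ry12, an ADP receptor of resting microglia, had 0.629 to 4.11 RPKM at day 14 and 4.47 to 7.17 RPKM at day 7, separated by day. Csf1r, whose ligands keep microglia alive, had 27.0 to 62.4 RPKM at day 14 and 51.3 to 91.9 RPKM at day 7 (log2 -0.62). Trem2, a lipid-sensing receptor, had a log2 difference of 0.03 (40.1 to 102 RPKM at day 14 and 45.8 to 85.6 RPKM at day 7).

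Further myeloid genes stood among the 12 largest lower ones. Cd72, a receptor of B cells and myeloid cells, had 4.91 to 16.0 RPKM at day 14 (median 10.2), against 21.6 to 43.9 RPKM at day 7 (median 30.4; log2 -1.59, adjusted p = 0.190 by sets and 0.0380 by cultures). Ly86, which pairs with a Toll-like receptor relative, had 22.3 to 39.2 RPKM at day 14 (median 25.7), against 49.3 to 131 RPKM at day 7 (median 76.5; log2 -1.45, adjusted p = 0.269 by sets and 0.0274 by cultures). Ly86 fell in wild-type glia (log2 -1.81, adjusted p = 0.0167 by sets). The lectin receptor Clec4a3 had 0.585 to 2.21 RPKM at day 14 and 2.44 to 10.7 RPKM at day 7, and the apolipoprotein Apoc1, which macrophages make, had 3.64 to 15.6 RPKM at day 14 and 17.3 to 41.9 RPKM at day 7. Gngt2, a G protein subunit, had 4.81 to 7.43 RPKM at day 14 and 9.29 to 28.3 RPKM at day 7 (log2 -1.31, adjusted p = 0.0460 by cultures).

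Complement genes, many of them made by microglia, had a median log2 difference of -0.58 (10 of 11 below 0, 6 with an unadjusted p under 0.05, all lower). The share of all genes lower at such a p was 5.47%. C1qa, C1qb and C1qc encode the chains of C1q, which starts the classical pathway. C1qb had 212 to 328 RPKM at day 14 (median 289), against 328 to 802 RPKM at day 7 (median 556; log2 -0.91, adjusted p = 0.309). C1qa had 205 to 496 RPKM at day 14 and 345 to 1062 RPKM at day 7, and C1qc 223 to 383 and 284 to 788 RPKM. C3, the central component, which astrocytes also make, had 31.0 to 305 RPKM at day 14 and 203 to 282 RPKM at day 7 (log2 -1.42), and its range at day 14 took in that of day 7. The part of the microglial markers, whose lower sum is given above, in these values was not tested.

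All 13 interferon response genes had a log2 difference below 0 (median -0.75), 7 of them with an unadjusted p under 0.05, and none of the 13 was without overlap. Of all 13833 genes 6778 were below 0, 5.47% were lower with such a p and 1.19% were lower without overlap. Ifit3, induced by interferon, had 7.56 to 36.8 RPKM at day 14 (median 17.6), against 15.1 to 66.8 RPKM at day 7 (median 37.5; log2 -1.01, adjusted p = 0.520). Mx1, an antiviral GTPase, had 0.113 to 1.19 RPKM at day 14, against 0.910 to 2.93 RPKM at day 7 (log2 -0.78). The list's median offset from the mean of all 8 cultures was 0.70 in the wild-type culture of day 14 numbered 1, and -1.18 to -0.16 in the other 3 of day 14. It was -0.54 in the mutant culture of day 7 numbered 2, and 0.30 to 1.05 in the other 3 of day 7. Antigen presentation had a median of -0.37 (7 of 9 below 0), with Cd74, the invariant chain of MHC class II, at 0.431 to 11.8 RPKM at day 14 and 8.39 to 19.1 RPKM at day 7.

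Among 15 cytokines and chemokines the median was -0.30, and single members went both ways. The cytokine Il1b was low throughout, with 0.176 to 0.692 RPKM at day 14, against 0.929 to 2.73 RPKM at day 7 (log2 -0.89, adjusted p = 0.190 by sets and 0.0380 by cultures). It was the only member without overlap, against 1.19% of all genes in that direction. Cxcl10, an interferon-induced chemokine, had 1.57 to 5.92 RPKM at day 14 and 2.78 to 16.0 RPKM at day 7 (log2 -1.16). Cxcl1, a neutrophil chemokine, had 1.42 to 9.12 RPKM at day 14 and 0.885 to 1.77 RPKM at day 7 (log2 1.06), overlapping at the low end.

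**Figure D2:**
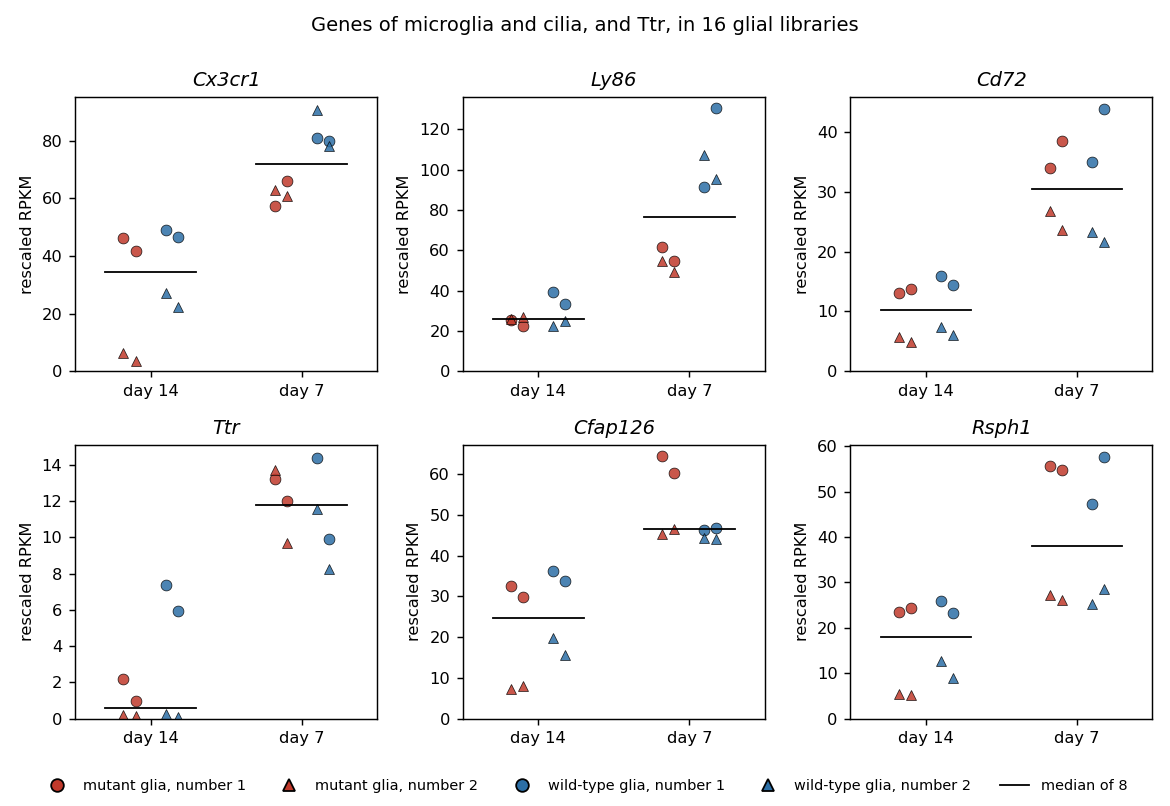
Levels of Cx3cr1, Ly86, Cd72, Ttr, Cfap126 and Rsph1 in 16 glial libraries, in rescaled RPKM on linear axes that start at 0, with day 14 left of day 7; red marks mutant and blue wild-type glia, circles number 1 and triangles number 2, and the line is the median of 8 libraries. The 2 mutant libraries of day 14 numbered 2 lie lowest for Cx3cr1, with a mean of 4.93 RPKM.

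Genes of motile cilia had the lowest list median, -1.09, with all 6 measured members of 8 below 0. Of these 4 reached an unadjusted p under 0.05, against 5.47% of all genes in that direction. The summed level of the 6 members was 31.4 to 174 RPKM at day 14 and 146 to 274 RPKM at day 7. The list's median offset from the mean of all 8 cultures was 0.04 (mutant) and 0.30 (wild type) in day 14 cultures numbered 1. It was -1.91 and -0.94 in those numbered 2, and 0.41 to 0.83 in day 7 cultures. Cfap126, a protein of the ciliary basal body, had 7.35 to 36.3 RPKM at day 14 (median 24.8), against 44.1 to 64.4 RPKM at day 7 (median 46.5; log2 -1.27, adjusted p = 0.533). It was the 1 member of the 6 without overlap, against 1.19% of all genes in that direction. Its difference was -0.95 without the mutant culture of day 14 numbered 2. Rsph1, of the radial spoke, had 5.11 to 26.0 RPKM at day 14 and 25.3 to 57.7 RPKM at day 7, and Ccdc153, of the axoneme, 0.795 to 11.9 and 8.70 to 19.3 RPKM. Foxj1, the master regulator of motile cilia, averaged 83.0, 16.4, 81.7 and 31.3 RPKM in the day 14 cultures (mutant numbers 1 and 2, wild-type numbers 1 and 2), and 124, 58.8, 103 and 60.8 RPKM in the day 7 cultures in that order. Libraries numbered 2 thus had lower Foxj1 than those numbered 1 at both days, and its log2 difference of -0.90 was 0.00 without the day 14 set numbered 2. Ak7 and Meig1, expressed in ciliated cells and testis, were also among the 12 largest lower genes. Ak7 had 1.04 to 6.25 RPKM at day 14 and 6.76 to 11.1 RPKM at day 7 (adjusted p = 0.0488 by cultures), and Meig1 1.20 to 10.7 and 10.8 to 16.2 RPKM.

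Ttr, the thyroxine and retinol carrier that the choroid plexus makes in large amounts, had 0.0722 to 7.40 RPKM at day 14 (median 0.613), against 8.25 to 14.4 RPKM at day 7 (median 11.8). The day 14 libraries spread widely, and their separation from those of day 7 was a condition for naming the gene. The log2 difference was -2.46 (SE 0.61), the largest in size among the 12 lower genes, with an adjusted p of 0.314 by sets and 0.0380 by cultures. Crabp1, which binds retinoic acid in the cytoplasm, had 7.05 to 10.7 RPKM at day 14 (median 7.86), against 16.7 to 29.9 RPKM at day 7 (median 22.0). Its log2 difference of -1.32 (SE 0.21) had an adjusted p of 0.120 by sets and 0.0127 by cultures, and was -1.21 in mutant and -1.42 in wild-type glia. Dynlt1b, a dynein light chain with near-identical copies, had 0.672 to 2.41 RPKM at day 14 and 2.44 to 17.7 RPKM at day 7, and its counts are uncertain for that reason.

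Astrocyte markers as a list had a median log2 difference of -0.08, with 5 of 12 above 0. Gja1, the gap junction protein connexin 43, was the 1 marker without overlap, against 1.19% of all genes with day 14 lower. It had 99.3 to 159 RPKM at day 14 (median 127), against 171 to 210 RPKM at day 7 (median 186, log2 -0.56, adjusted p = 0.441). Slc1a2, the glutamate transporter GLT-1, had 27.8 to 71.8 RPKM at day 14 (median 41.2), against 24.5 to 32.4 RPKM at day 7 (median 28.9; log2 0.57, adjusted p = 0.589). Gfap, the intermediate filament of reactive astrocytes, averaged 177, 61.2, 153 and 238 RPKM in the day 14 cultures (mutant numbers 1 and 2, wild-type numbers 1 and 2) and 130, 182, 61.5 and 91.1 RPKM in the day 7 cultures in that order. Aqp4, the water channel of astrocyte endfeet, averaged 97.5, 54.9, 90.2 and 95.1 RPKM at day 14 and 106 to 109 RPKM at day 7. For both genes the mutant culture of day 14 numbered 2 was the lowest of the day 14 cultures.

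Oligodendrocyte and myelin markers differed by culture more than by day. Sox10, the regulator of the lineage, averaged 31.8 RPKM in the wild-type culture of day 14 numbered 2, against 0.260 to 0.688 RPKM in the other 3 of day 14 and 0.658 to 3.41 RPKM at day 7. In that same culture Mbp, a structural protein of myelin, averaged 39.0 RPKM, against 2.95 to 4.57 RPKM in the other 3 of day 14 and 5.85 to 24.1 RPKM at day 7. Its fibroblast marker Col1a2 averaged only 11.5 RPKM, against 118 to 151 RPKM in the other 3 of day 14 and 50.8 to 84.8 RPKM at day 7. The summed level of the 10 measured oligodendrocyte markers was 34.8 to 250 RPKM at day 14 and 92.3 to 169 RPKM at day 7. The sum of 11 fibroblast and meningeal markers was 348 to 1080 RPKM at day 14 and 495 to 863 RPKM at day 7.

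**Figure D3:**
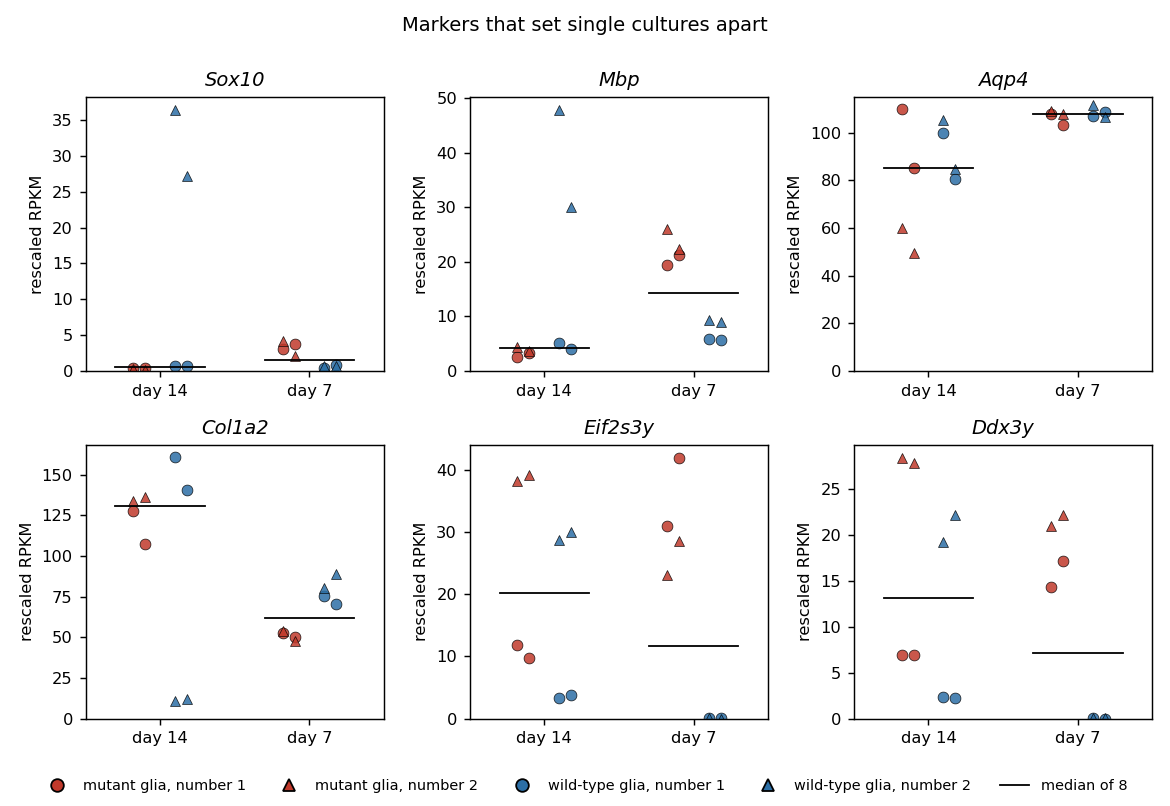
Levels of Sox10, Mbp, Aqp4, Col1a2, Eif2s3y and Ddx3y in 16 glial libraries, in rescaled RPKM on linear axes that start at 0, with day 14 left of day 7; red marks mutant and blue wild-type glia, circles number 1 and triangles number 2, and the line is the median of 8 libraries. The wild-type culture of day 14 numbered 2 is highest for Sox10 and Mbp and lowest for Col1a2.

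Y-linked RNA also differed between cultures. The summed level of Ddx3y, Eif2s3y, Kdm5d and Uty was 19.8 to 22.0 and 75.9 to 76.4 RPKM in the mutant cultures of day 14 numbered 1 and 2, and 6.68 to 7.04 and 57.5 to 61.8 RPKM in the wild-type cultures of day 14. At day 7 it was 51.6 to 66.9 and 51.5 to 58.7 RPKM in the mutant cultures, and 0.0965 to 0.151 and 0.0729 to 0.115 RPKM in the wild-type cultures. Wild-type glia of day 7 thus held almost none, while those of day 14 held some, so that in wild-type glia the day and the sex of the cells cannot be told apart. Mutant cultures held such RNA at both days. The difference of the change between genotypes therefore cannot be told apart from the sex of the cells either.

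Most other lists lay near the median of all genes. Cell division (19 genes, 0.10), collagens (15 genes, 0.09), matrix glycoproteins (20 genes, 0.14), heat shock (12 genes, 0.08), glycolysis (16 genes, 0.02) and DNA replication (15 genes, -0.09) had no more than 2 members with an unadjusted p under 0.05. The neuronal growth factors (14 genes, -0.18) and the list of reactive astrocyte genes (14 genes, -0.01) also had no more than 2. Among 15 oxidative stress genes, Hmox1, the inducible heme oxygenase, had 147 to 661 RPKM at day 14 and 104 to 226 RPKM at day 7 (log2 1.00), which was -0.10 in the libraries numbered 1 alone. Mt3, a brain metallothionein, had 1486 to 2884 RPKM at day 14 and 2287 to 6307 RPKM at day 7 (log2 -0.85). Of 17 ALS genes Ubqln2, a shuttle to the proteasome, was the 1 without overlap, against 0.983% of all genes with day 14 higher. It had 27.7 to 36.4 RPKM at day 14 and 19.1 to 27.5 RPKM at day 7 (log2 0.42).

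**Figure D4:**
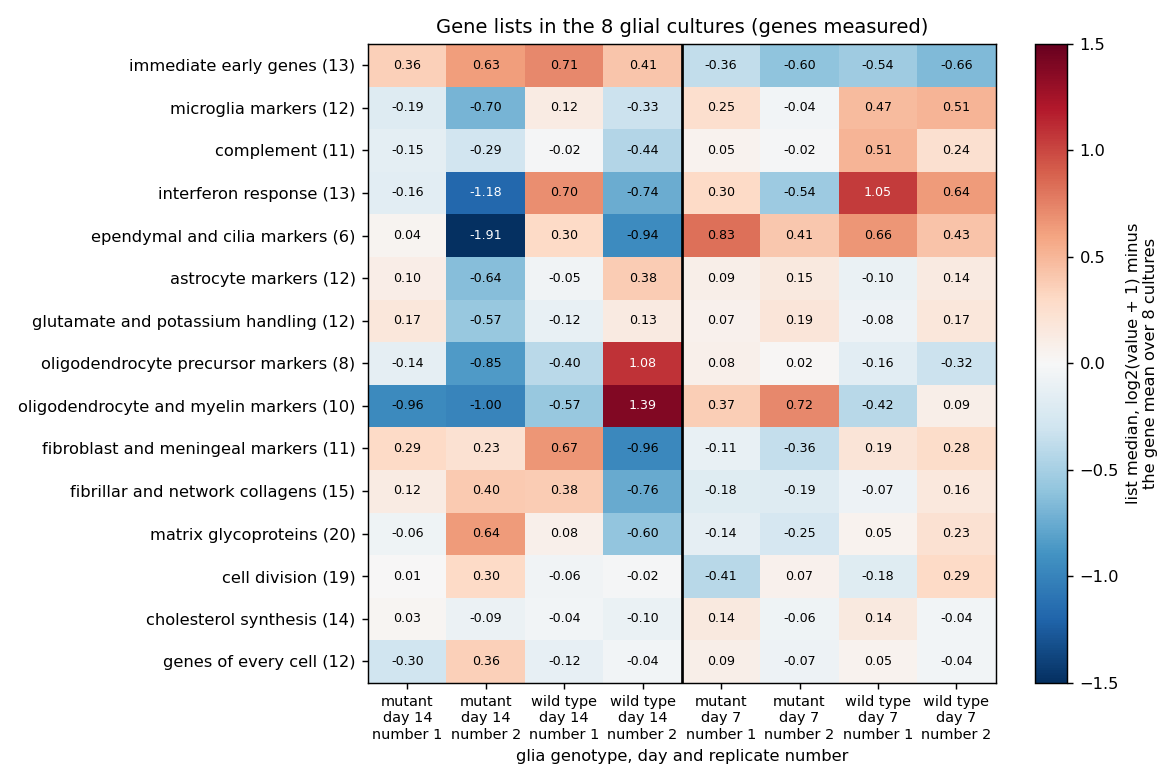
Median offset of 15 gene lists in each of the 8 cultures, on the log2 scale, relative to the mean of all 8 cultures; columns are cultures, day 14 left of day 7. Immediate early genes are above 0 in all 4 day 14 cultures and below 0 in all 4 day 7 cultures, while oligodendrocyte markers reach 1.39 in 1 day 14 culture.

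Within mutant glia 3 genes passed by sets (0.0217%), and within wild-type glia 37 did (0.267%), of which 11 rose and 26 fell. Of these 32 passed in 1 genotype and also differed between the genotypes by test, 3 in mutant glia and 29 in wild-type glia. A difference of the change between genotypes passed by sets in 427 genes (3.09%), with 244 higher (1.76%) and 183 lower (1.32%) in mutant glia. With values as deposited it was 457, with 214 higher and 243 lower. No gene passed this difference with cultures as the units (limma, 0 genes, 316 with an unadjusted p under 0.05) or in differences taken within sets (0 genes, 652 unadjusted), and without the day 7 set numbered 2 the count was also 0. The fit by sets counts the 2 near-alike libraries of a culture separately, so its p-values for this difference can be too small. The values below are therefore given by culture or library.

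Gatm, which makes the creatine precursor guanidinoacetate, fell in mutant glia (log2 -2.14, adjusted p = 0.0197 by sets and 0.0419 by cultures). The mutant libraries had 16.2, 17.6, 8.58 and 6.96 RPKM at day 14, against 58.4, 54.3, 54.4 and 49.7 RPKM at day 7. The wild-type libraries had 28.3, 22.1, 19.7 and 16.5 RPKM at day 14, against 30.1, 31.1, 31.7 and 30.4 RPKM at day 7 (log2 -0.52). Because Gatm was among the genes chosen for no overlap between days, its separation by day within each genotype was a condition of that choice. The fall was larger in mutant glia (difference -1.63, SE 0.19, adjusted p = 0.000462 by sets and 0.640 by cultures). Gatm was the only mutant call left with cultures as the units.

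Mrc1, the mannose receptor of perivascular and meningeal macrophages, rose in mutant glia by sets (log2 2.31). The mutant libraries had 32.8, 33.0, 73.1 and 72.3 RPKM at day 14, against 6.10, 8.03, 11.5 and 11.9 RPKM at day 7. The wild-type libraries had 27.8, 29.0, 38.5 and 56.7 RPKM at day 14, against 28.2, 28.0, 44.1 and 42.7 RPKM at day 7. The low values were thus those of mutant glia at day 7. Cldn11, a tight junction protein of myelin and meninges, fell in mutant glia by sets and averaged 4.98 and 3.12 RPKM in the mutant cultures of day 14, against 11.5 and 15.2 RPKM in those of day 7. In wild-type cultures it averaged 19.1 and 16.6 RPKM at day 14, against 18.4 and 21.4 RPKM at day 7.

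Several of the 26 genes that fell in wild-type glia were high in wild-type glia of day 7 and low in the other 3 combinations of genotype and day. Slc6a13, a GABA and taurine transporter of the leptomeninges, had 5.69, 4.43, 7.52 and 6.96 RPKM in wild-type libraries of day 14, against 32.7, 45.4, 41.7 and 36.5 RPKM in those of day 7 (log2 -2.50, adjusted p = 0.00983 by cultures). In mutant libraries it stayed between 3.47 and 9.05 RPKM at day 14 and 5.22 and 5.77 RPKM at day 7. Enpp2 (autotaxin, which makes lysophosphatidic acid) averaged 7.67 and 11.8 RPKM in wild-type cultures of day 14, against 36.0 and 40.8 RPKM in those of day 7, and 3.35 to 6.77 RPKM in the mutant cultures. Angptl7, Ccl11 and Trp53i11 had the same shape, with wild-type log2 changes of -2.78, -2.41 and -1.89. These same wild-type cultures of day 7 were the ones that held almost no Y-linked RNA.

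Among the largest genotype differences, some leaned on 1 culture and others did not. Vtn, the matrix protein vitronectin, averaged 2.83 and 91.7 RPKM in mutant cultures of day 14, against 9.24 and 7.93 RPKM in those of day 7, and 8.45 and 19.4 RPKM in wild-type cultures of day 14, against 71.6 and 58.8 RPKM in those of day 7. Its difference of 3.22 was 1.39 without the mutant culture of day 14 numbered 2 (adjusted p = 0.00359 by sets). Aldh1a2, which makes retinoic acid in the meninges, averaged 11.5 and 79.1 RPKM in mutant cultures of day 14, against 19.3 and 20.4 RPKM in those of day 7, and 23.6 and 25.4 RPKM in wild-type cultures of day 14, against 88.0 and 89.7 RPKM in those of day 7. Its difference of 2.40 was 1.09 without that mutant culture, and both wild-type cultures of day 14 were below both of day 7.

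Of the 10 measured oligodendrocyte markers 7 differed by genotype by sets, all lower in mutant glia, against 1.32% of all genes in that direction. Median changes were -1.48 in mutant and 0.60 in wild-type glia. The list's median offset was 1.39 in the wild-type culture of day 14 numbered 2, against -0.57 in that numbered 1. It was -0.42 and 0.09 in the wild-type cultures of day 7. A fit without the culture at 1.39 alone was not run. Sox10 averaged 0.470 and 0.260 RPKM in mutant cultures of day 14, against 3.41 and 3.19 RPKM in those of day 7. In wild-type cultures it averaged 0.688 and 31.8 RPKM at day 14, against 0.660 and 0.658 RPKM at day 7. Both mutant cultures of day 14 were thus below those of day 7, and 1 wild-type culture of day 14 was far above the wild-type cultures of day 7. Without the mutant culture of day 14 numbered 2 the difference was -1.89 for Sox10 (adjusted p = 0.104 by sets), against -3.80 with it, and -2.18 for Mbp (adjusted p = 0.0108), against -3.19 with it. Pianp, at -4.02, a ligand of an inhibitory immune receptor, averaged 5.61 and 0.517 RPKM in mutant cultures of day 14, against 16.6 and 12.2 RPKM in those of day 7, and 2.52 and 4.85 RPKM in wild-type cultures of day 14, against 0.369 and 0.335 RPKM in those of day 7. Both mutant cultures of day 14 were below those of day 7 and both wild-type cultures above, and without the mutant culture of day 14 numbered 2 the difference was -2.67 (adjusted p = 2.75e-05 by sets). Eif2s3y, at -4.01, and Ddx3y, at -3.40, are Y-linked.

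**Figure D5:**
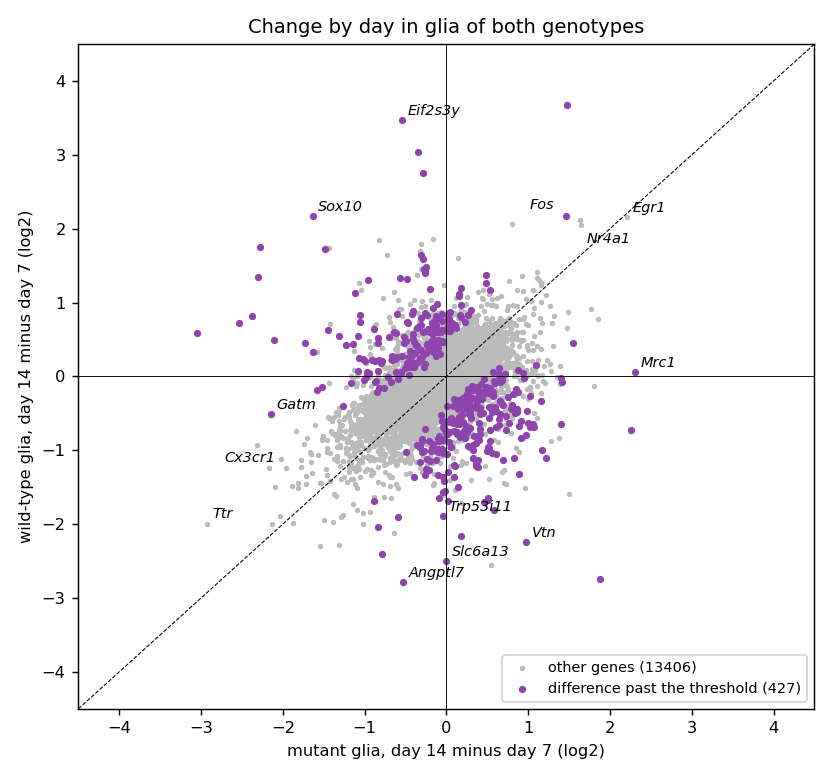
Difference of day 14 minus day 7 for each of 13833 genes, on the log2 scale, in mutant glia across and in wild-type glia upwards, with the 427 genes that differed by sets in purple and the line of equal change dashed. Egr1 lies near the diagonal with 2.21 and 2.16, while Sox10 and Vtn lie on either side of it.

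For the genotype of the neuron partner no difference was detected. The change by day differed between glia with mutant neurons and glia with wild-type neurons in 0 of 13833 genes (limma, 0%), with 76 genes at an unadjusted p under 0.05, or 0.549%, and in 0 genes under each alternative run.

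Set against the 14 neuronal libraries of the same days (7 per day), the glial change differed in 7620 of 15005 genes (50.8%), and in 2736 with cell type within each set as the unit. For immediate early genes the neurons had another pattern, with a median of 0.21. Fos had a median of 22.8 RPKM at day 14 and 23.6 RPKM at day 7 in neurons, so that its change was larger in glia by 1.77 on the log2 scale (adjusted p = 1.28e-08). Nr4a1 had medians of 66.2 RPKM at day 14 and 3.41 RPKM at day 7 in neurons, a log2 difference of 3.73, larger than that in glia (difference -1.89, adjusted p = 4.92e-05). Egr1 had 34.8 RPKM at day 14 and 12.8 RPKM at day 7 in neurons as medians (log2 1.12, glia minus neurons 1.06, adjusted p = 0.000185, and 0.0938 with cell type within each set as the unit). Of the 13 genes 8 had a larger change in glia and 1 a smaller one by test. Among all 15005 genes it was larger in 4030 and smaller in 3590.

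Cilia genes had list medians of opposite sign in the 2 partners, although none of them passed by day in glia. Their median was -1.09 in glia and 1.31 in neurons, and all 6 differed by test, against 50.8% of all genes. Cfap126 had medians of 24.7 RPKM at day 14 and 2.05 RPKM at day 7 in neurons, and the glial change was lower by 3.76 on the log2 scale. Foxj1 had medians of 49.9 RPKM at day 14 and 11.1 RPKM at day 7 in neurons (glia minus neurons -2.55, adjusted p = 0.0121 with cell type within each set as the unit). Gja1 likewise had medians of 69.4 and 19.1 RPKM in neurons at day 14 and day 7 (glia minus neurons -2.30). The astrocyte markers as a list had a median of 1.34 in neurons, against -0.08 in glia. Of these 12 markers 9 differed by test, against 50.8% of all genes. Microglial markers had medians of -0.68 in glia and -0.68 in neurons, and 1 of 12 differed by test. How far glial cells within the neuronal partner bear on these values was not tested.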

How the data were processed

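RNA-seq values of 16 glial and 14 neuronal co-culture libraries of day 14 and day 7 were used, out of 59 libraries, grouped by their labels. Per the labels' protocols, extraction used Trizol with RNeasy columns, and libraries were made by a standard Illumina or a Nextera protocol (which for each is not given). Bowtie and the genome build mm9 are named in the submitters' processing notes. The values deposited by the authors are RPKM per gene entry, and all 22784 entries above 0 came out as whole reads (tolerance 0.02 of a read). Libraries were rescaled by median-of-ratios factors, and log2(value + 1) was fitted in limma 3.58.1 (R 4.3.3, statmod 1.5.0) for genes reaching 1 in 2 libraries or more, with a mean for each pairing and the day. The correlation within sets (day and replicate number) was estimated over genes as 0.553, eBayes used a trend, and p-values were two-sided and Benjamini-Hochberg adjusted over all genes. Since RPKM are not counts, a count model served only as an alternative (limma voom on recovered reads). Genotype, neuron partner and cell type entered as interactions with day. Only the fit of the day effect was tested on simulated data, and the fits with interactions were not. The genes and lists were chosen with earlier results of these data known. Genes were named by size of change without overlap at a mean of 5 or more, by list and by genotype difference. Symbols with more than 1 entry use the entry with the highest mean. Promoters are RefSeq windows on GRCm38.p6.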

Additional observations from a re-analysis of the deposited data

Results flagged for a closer look

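In groups of 4 libraries of 1 genotype and day, 12 of 316 groups had 1 library far from the other 3, where chance flags about 1 in 20 groups of independent libraries. These groups are 2 cultures of 2 near-alike libraries each, so that this rate does not apply as such. The gap as a share of the group's range was 0.936 for Trib1 and 0.866 for Hpse and 0.863 for Trp53i11 in wild-type glia of day 14, and 0.888 for Crabp1 in mutant glia of day 14. In wild-type glia of day 7 it was 0.831 for Ier2, 0.907 for Ifit1, 0.871 for Cxcl1, 0.923 for Mdk and 0.945 for Angptl7, and in mutant glia of day 7 it was 0.923 for Angptl7, 0.845 for Cldn11 and 0.841 for Ccl11.

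The change by day differed between mutant and wild-type glia by sets, and not with cultures as units, for Jun, whose values are above, and for 22 other named genes. For these 22 it is given as mutant minus wild type on the log2 scale. The change was higher in mutant glia for Vtn (3.22), Adamts4 (2.99), Slc6a13 (2.49), Aldh1a2 (2.40), Mdk (2.33), Ccl8 (2.31), Angptl7 (2.26), Mrc1 (2.25), Trp53i11 (1.84), Ccl11 (1.61) and Enpp2 (1.32). It was lower for Pianp (-4.02), Eif2s3y (-4.01), Sox10 (-3.80), Ctse (-3.65), Ifi202b (-3.64), Ddx3y (-3.40), Mbp (-3.19), Gatm (-1.63), Cldn11 (-1.37), Fos (-0.71) and Trib1 (-0.64). Ctse and Ddx3y have 2 entries each, and Ifi202b has near-identical copies, so that their values are uncertain.

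The change differed between glia and neurons in 50.8% of all genes, and in more named genes than the 7 given here. These 7 were the ones followed in the alternative fits. As glia minus neurons on the log2 scale, Fos (1.77) and Egr1 (1.06) were higher. Cfap126 (-3.76), Ccdc153 (-3.36), Foxj1 (-2.55), Gja1 (-2.30) and Nr4a1 (-1.89) were lower. With cell type within each set as the unit Egr1 had an adjusted p of 0.0938, and the other 6 still passed.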

How the results depend on the processing

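Counts of genes past the threshold moved strongly with the unit that was allowed to vary. For day 14 against day 7 (0 genes), 1 gene passed with values as deposited, 5 without a filter, 1561 with independent libraries, 3169 with the replicate block, 33 with cultures as units, 6 with voom and 3 without the mutant cultures of day 14 numbered 2. Leaving out a set gave 496 (day 14 number 1), 4 (day 14 number 2) and 248 (day 7 number 2), libraries numbered 1 alone 5188, numbered 2 alone 2527, and leaving out single libraries 0 to 2. For mutant glia (3 genes) the counts were 16 without a filter, 189 independent, 1384 with the replicate block, 2703, 22, 0 and 27 without each set in that order (day 14 numbers 1 and 2, day 7 numbers 1 and 2), 3381 and 8379 in number 1 or 2 alone, 1 with cultures, 33 with voom, 1 without the mutant cultures of day 14 numbered 2, and 0 to 8 without single libraries, with 0 when any of 3 of the 4 mutant libraries of day 7 was left out (all but that with mutant neurons numbered 1). For wild-type glia (37) they were 23 at a pseudocount of 0.1, 145 without a filter, 19 at a mean of 5 or more, 404 independent, 1255 with the replicate block, 1008, 136, 3 and 105 without each set, 4413 and 5661 by number, 15 with cultures, 70 with voom, and 17 to 36 without single libraries. For the genotype difference (427) they were 176 at a mean of 5 or more, 41 independent, 96 with the replicate block, 5185, 21 and 0 without the sets of day 14 number 1 and day 7 numbers 1 and 2, 135 and 5771 by number, 0 with cultures, 1327 with voom, 0 in differences within sets, and 193 to 783 without single libraries. For the neuron partner it was 0 throughout, and for glia against neurons (7620) 4813 at a mean of 5 or more and 2736 with cell type within each set as the unit.

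Numbers did not pair the days: residuals of same-numbered libraries of a pairing correlated at -0.07 to 0.01 across days, so the replicate block rests on a shared number only. In all 5 values turned sign, each without a call: Foxj1 (0.0015 without the day 14 set numbered 2), Dnah11 (0.0881 in libraries numbered 1), Hmox1 (-0.10 in those numbered 1) and Sod1 (0.20 without the day 7 set numbered 1, 0.21 in libraries numbered 2). The cause was not tested in any of these. Where a set was left out, the remaining set of that day was assumed to vary like the others. Cultures, voom, the omission of the mutant cultures and within-set differences were chosen after seeing the data. Each day had 2 sets, which limits the precision of every day comparison, and the day 14 set numbered 1 had the fewest reads.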
